A study of Mus musculus with 16 samples.

Results

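Lyve1 Cd163 Cd209f macrophages are a rare set of macrophages picked by rule from single-cell RNA profiles of CD45-enriched cells of subcutaneous B16 melanomas. A barcode was a member when it had at least 200 genes and at most 10% mitochondrial UMIs (unique molecular identifiers, each 1 captured RNA molecule) and met 4 further limits. These were 10 or more UMIs of C1qa, C1qb and C1qc together, 0 of Cd3d, Cd3e and Cd3g together, at most 1 of Nos2, and 2 or more of Lyve1, Cd163 and Cd209f together. The rule found 2987 members among 99357 barcodes that passed the gene and mitochondrial limits, of 116552 in all. The 21775 barcodes that met every limit but the last are called other C1q macrophages here.

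C57BL/6J mice received 1000000 Bro4.1 B16 cells under the skin, either control cells or cells that lack B2m, and were treated on days 6, 9 and 12 with 100 µg of anti-CD40 antibody or of rat IgG2a isotype control, by the intraperitoneal route. Tumours were taken on day 14, and all mice carried a B16 tumour, so no group is free of tumour or of antibody. Cells of each mouse carried a hashtag antibody, and the mice of a pool shared 1 lane. The 16 mice that hashtags separated were 5 control isotype mice, 2 control CD40 mice, 5 B2m-null isotype mice and 4 B2m-null CD40 mice. Both control CD40 lanes are technical repeats of 1 pool, so for that group the pool and the treatment cannot be told apart. The labels list 3 hashtags for each pool, while 6 of the 8 lanes' files hold 2, and the mice's age is not given in the sources used here.

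Macrophages that carry Lyve1, a hyaluronan receptor better known from lymphatic vessels, with Cd163, a receptor for haemoglobin bound to haptoglobin, and Folr2, a folate receptor, are found along vessels and in connective tissue of many organs. They are commonly described as long-lived tissue-resident cells that clear debris and maintain vessels. Anti-CD40 antibody engages a receptor of the tumour necrosis factor family on antigen-presenting cells, which signals through NF-kB, and B2m is the light chain that MHC class I needs to reach the cell surface.

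The 8 lanes held 45985739 to 99264875 gene UMIs, and the median member had 3392 to 11932.5 UMIs by lane. Of the 2987 members, 2182 had 1 clear hashtag and entered the comparisons between mice. Another 530 carried more than 1 hashtag, and 275 had none (1.46 to 26.4% of members by lane). More than 1 hashtag was seen in 4.73 to 31.6% of members by lane and in 2.71 to 18.3% of other C1q macrophages, with members above the others in all 8 lanes (from 4.73 against 2.71% to 31.6 against 18.3%), and no other doublet caller was run. Any pair of lanes shared 0.308 to 0.623% of the smaller lane's barcodes. GEO's genotype label gives B2M KO as the mouse, and the design text gives it as the implanted cells. B2m stood at 151 to 388 CPM in barcodes with melanoma markers of the B2m-null lanes and at 864 to 1992 CPM in those of the control lanes, whereas members held 2913 to 5735 CPM in all 8 lanes. CPM here means UMIs of a gene per 1000000 UMIs summed over the named cells of a mouse or lane.

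The genes that define the members were not equally common among them. Lyve1 was detected in 79.3% of members, Cd163 in 47.7% and Cd209f in 49.4%. Lyve1 alone was seen in 833 members, Cd163 alone in 264 and Cd209f alone in 188. All 3 were found in 579 members. The genes detected differed between treatments. In B2m-null tumours Cd209f alone made up 2.82% of isotype members and 15.7% of anti-CD40 members, Cd163 alone 12.1 and 3.07%, and Lyve1 with Cd163 but no Cd209f 18.3 and 6.70%. In control tumours the same 3 shares were 4.13 and 14.2%, 7.54 and 4.60%, and 11.9 and 7.11%. These are shares of cells pooled over mice, with no test. Depth moved with them, since the median member had 5075 to 11932.5 UMIs in isotype lanes and 3392 to 6056 UMIs in anti-CD40 lanes, and members with Cd209f alone had a median of 4232.5 UMIs against 9094 in those with Lyve1 and Cd163 but no Cd209f. Its part in these shares was not tested. Folr2, which the rule did not use, was found in 92.9% of members and in 43.1% of other C1q macrophages. Among 15461 T cells, which should lack it, Folr2 was found in 1.03% at a median of 2165 UMIs, and 4 of these T cells had 2 or more UMIs of Lyve1, Cd163 and Cd209f. These values chose the members or come from the same cells, so they are a description.

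Folr2 followed the number of rule UMIs without a step at the threshold. It stood at 131 CPM in C1q macrophages with a rule sum of 0, at 275 CPM at 1 UMI, 404 CPM at 2 and 474 CPM at 3. Barcodes with 4 to 9 rule UMIs held 621 CPM and those with 10 or more held 746 CPM. The 1542 barcodes with a sum of 1, just outside the rule, therefore lay between the 20233 with none and the 600 just inside. Median depth was 6035 UMIs at a sum of 0 and 6494.5 at 1. It rose from 5341 at 2 to 5688.5 at 3, 6076.5 at 4 to 9 and 9407 at 10 or more. Its part in the result was not tested.

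Levels of the rule genes differed in spread between mice. Lyve1 in members stood at 440, 444, 562, 413 and 779 CPM in control isotype mice, 450 and 278 in control CD40 mice, 513, 541, 468, 437 and 568 in B2m-null isotype mice, and 566, 481, 385 and 390 in B2m-null CD40 mice. These ranges overlapped in all 4 groups. Cd209f, a C-type lectin of the DC-SIGN family, was at 405, 625, 702, 469 and 322 CPM in B2m-null isotype members and at 953, 506, 1154 and 979 CPM under anti-CD40, which overlap. Cd163 stood at 105 to 240 CPM in B2m-null CD40 mice and 224 to 393 CPM in B2m-null isotype mice, which overlap as well. The Cd209 genes are near copies of one another, so reads may be split between them.

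Members took a larger share of C1q macrophages in B2m-null isotype tumours than in control isotype or B2m-null CD40 tumours. The share was 2.47, 16.1, 7.50, 5.51 and 11.4% in control isotype mice, 9.96 and 3.32% in control CD40 mice, 13.9, 34.4, 25.5, 16.1 and 25.7% in B2m-null isotype mice, and 11.8, 5.26, 10.8 and 10.8% in B2m-null CD40 mice. Under anti-CD40 every B2m-null mouse lay below every B2m-null isotype mouse, at 9.68 ± 2.98% (SD, n = 4) against 23.1 ± 8.29% (SD, n = 5), a difference of -13.5 percentage points (exact two-sided permutation test, p = 0.0159, adjusted p = 0.0397 over 5 comparisons). That p is the smallest this design allows. Under isotype, B2m-null mice were 14.6 points above control mice at 8.59 ± 5.30% (SD, n = 5), and the ranges overlapped (exact permutation test, p = 0.0159, adjusted p = 0.0397).

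The other share comparisons did not pass the threshold. Control CD40 mice were at 6.64 ± 4.70% (SD, n = 2), -1.95 points from control isotype mice (exact permutation test, p = 0.762, with 0.0952 the smallest possible). B2m-null CD40 mice were 3.04 points above control CD40 mice (exact permutation test, p = 0.267, adjusted p = 0.333). The anti-CD40 effect on the share differed between tumour types by -11.5 points (exact permutation within tumour type, p = 0.125, adjusted p = 0.208). Without any 1 mouse or lane of the groups compared, the exact permutation test's adjusted p of the B2m-null anti-CD40 comparison lay between 0.0714 and 0.333 and its difference between -15.8 and -10.6 points. Fewer mice raise the smallest possible p, so a lost call alone does not show that 1 mouse carried the result. The B2m-null anti-CD40 call was lost in 13 of 13 such runs. For the isotype comparison the call was lost in 13 of 14 runs, with the adjusted p of the exact permutation test between 0.0397 and 0.333 and the difference between 11.7 and 16.9 points. With the lane as the unit the differences were -10.6 and 11.1 points. Neither call could hold, since p = 0.333 is the smallest that so few lanes allow (exact permutation test, adjusted p = 0.556 for both). With at most 5% mitochondrial UMIs per barcode neither passed the exact permutation test, at -10.0 points (adjusted p = 0.0794) and 11.2 points (adjusted p = 0.0718). Other C1q macrophages had a median of 5054 and 9267.5 UMIs in the B2m-null isotype lanes and 5066 and 7871 in the B2m-null CD40 lanes. In the control isotype lanes they had 5626 and 6769.5. With the rule on counts thinned to 3000 UMIs the differences were -11.8 and 12.2 points (exact permutation test, adjusted p = 0.0397 for both).

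**Figure D1:**
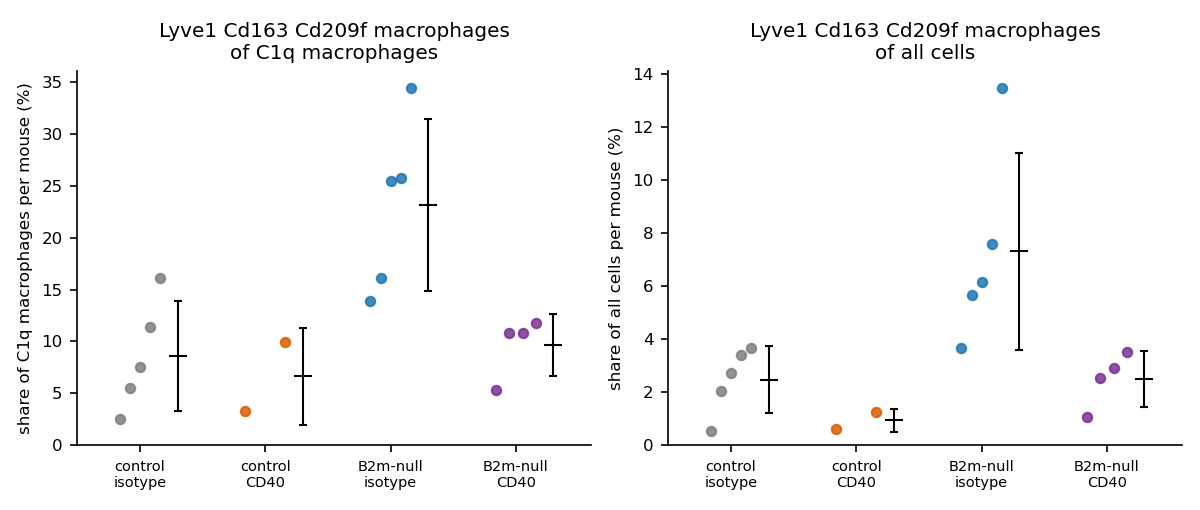
Share of Lyve1 Cd163 Cd209f macrophages among C1q macrophages (left, %) and among all passing barcodes assigned to the mouse (right, %), 1 point per mouse, with the mean and SD of each group as a bar beside the points. The 4 B2m-null CD40 mice sit between 5.26 and 11.8% of C1q macrophages, below all 5 B2m-null isotype mice at 13.9 to 34.4%.

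As a share of all passing barcodes that a hashtag assigned to the mouse, members made up 7.30 ± 3.71% (SD, n = 5) in B2m-null isotype mice and 2.50 ± 1.05% (SD, n = 4) under anti-CD40, with no overlap (exact permutation test, p = 0.0159, adjusted p = 0.0317 over 4 comparisons). In control isotype mice they made up 2.47 ± 1.25% (SD, n = 5), again with no overlap with B2m-null isotype mice (exact permutation test, p = 0.00794, adjusted p = 0.0317). These groups nearly touched, with the highest control isotype mouse at 3.667% and the lowest B2m-null isotype mouse at 3.674%. Hashtags were weak in the first B2m-null isotype and first B2m-null CD40 lanes, where 45.9 and 35.1% of all barcodes but 26.4 and 14.8% of members had none, against 2.88 to 13.8% of all barcodes in the other 6 lanes. Members were 4.97% of passing barcodes in that isotype lane and 6.15, 7.60 and 5.64% in its 3 mice. In control CD40 mice they made up 0.929 ± 0.442% (SD, n = 2), and the range overlapped control isotype mice (exact permutation test, p = 0.286). The Cd3 limit removed 1088 barcodes in control isotype, 1347 in control CD40, 530 in B2m-null isotype and 1054 in B2m-null CD40 lanes. These met the C1q and Nos2 limits, and 104, 67, 118 and 85 of them had 2 or more rule UMIs. The part of this limit in the shares was not tested. The Nos2 limit of the rule removed 13.5 to 19.9% of barcodes that met the C1q and Cd3 limits in anti-CD40 lanes and 1.05 to 6.45% in isotype lanes. With Nos2 limited to 0, the B2m-null difference in the C1q share was -12.9 points (exact permutation test, adjusted p = 0.0397). For the share of all barcodes, neither B2m-null comparison passed with at most 5% mitochondrial UMIs (exact permutation test, adjusted p = 0.0952 for both) or with the rule on thinned counts (exact permutation test, adjusted p = 0.0635 for both). Without any 1 mouse or lane, the B2m-null anti-CD40 difference in this share lay between -6.06 and -3.26 points. With fewer mice its adjusted p could not fall under 0.0571, so the call was lost in 13 of 13 runs whatever the values (exact permutation test, adjusted p = 0.0571 to 0.267). The isotype call was lost in 9 of 14 runs, where fewer mice raise the smallest possible p as well (exact permutation test, adjusted p = 0.0317 to 0.267). With the lane as the unit the differences were -4.12 and 3.63 points. Neither call could hold, since p = 0.333 is the smallest that so few lanes allow (exact permutation test, adjusted p = 0.667 for both). Members holding markers of other lineages were also left out, while all passing barcodes of the mouse stayed in the denominator. The differences were then -2.02 and 1.89 points (exact permutation test, adjusted p = 0.0317 for both). This share is smaller by construction, so the size of these differences cannot be set against those above. A share counts cells against other cells, so fewer members and more other macrophages cannot be told apart.

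Beyond the rule, members held more RNA of resident macrophage genes than other C1q macrophages of the same mouse. The rule chose the cells for this contrast and every gene was measured in the cells so chosen, so values are given as a description, on the edgeR log2 fold scale with its SE. edgeR counted 38.3% of 8753 tested genes as different at adjusted p under 0.05, 19% higher and 19.3% lower in members. All 28 tested genes of a 29-gene list of resident macrophage identity were higher in members, with a median of 2.16 against -0.02 over all genes. The list was chosen with earlier results of these data known. Genes of largest fold were named in this contrast only where all 16 mice had the same sign. For them, agreement of all mice is a condition of naming and no further result. RNA composition moved with this contrast. Ribosomal protein genes made up 8.90 to 12.6% of member UMIs and 10.1 to 13.3% of those of the others, lower in members of all 16 mice, and mitochondrial UMIs 4.12 to 6.35 and 4.01 to 5.22%, higher in members of 14 of 16 mice. Their part in the result was not tested.

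Some genes for lectins and for receptors of dying cells and complement were among those higher in members. The wider list of scavenger and apoptotic-cell receptors split evenly. Of its 15 tested genes 7 were higher and 7 lower in members, with a median of -0.20. Cd209g, another DC-SIGN family lectin, had a median of 253 CPM in members (27.5 to 612 over 16 mice) and of 1.34 CPM in other C1q macrophages (0.498 to 9.27), and was higher in members of all 16 mice. Fcna, which encodes ficolin A, a lectin that starts the complement cascade, had a median of 238 CPM against 15.0 CPM (log2 3.92 ± 0.14). Timd4, a receptor for phosphatidylserine on dying cells, had a median of 28.4 CPM against 0.574 CPM (log2 4.96 ± 0.35), and Vsig4, a complement receptor of tissue macrophages, had 21.1 CPM against 0.320 CPM (log2 5.26 ± 0.27). All 3 were also higher in members of all 16 mice.

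Of 13 tested complement genes other than C1q, 11 were higher in members and 1 lower. C4b, a component of the classical and lectin pathways, had a median of 125 CPM in members and 22.1 CPM in the others, with log2 2.57 ± 0.10. C6, a component of the membrane attack complex, was at log2 5.11 ± 0.19. Gas6 and Pros1, bridging ligands that link dying cells to TAM receptors, were at log2 2.22 ± 0.07 and 1.89 ± 0.08. Ednrb, an endothelin receptor, had a median of 420 CPM against 24.7 CPM, and Ltc4s, leukotriene C4 synthase, had 225 CPM against 18.6 CPM. All of these were higher in members of every mouse, a condition of naming for those of largest fold.

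Several secreted factors were also higher in members, although their lists split. Of 13 tested chemokines 7 were higher and 6 lower in members. Of 14 tested suppressive and alternative-activation genes 7 were higher and 7 lower. Ccl8 and Ccl6, chemokines of tissue macrophages, were at log2 1.33 ± 0.07 and 1.59 ± 0.08, and both were higher in members of 16 of 16 mice. Retnla, an alternative-activation gene, had a median of 654 CPM against 65.5 CPM, yet ranged from 25.6 to 3814 CPM between mice. Il10, an anti-inflammatory cytokine, had a median of 90.1 CPM in members and 27.2 CPM in the others. Of 18 tested macrophage transcription factors 8 were higher and 7 lower. Klf2 and Klf4, among the higher, were at log2 1.47 ± 0.07 and 1.46 ± 0.06.

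Some lists held more lower than higher genes in members. Of 18 lipid-associated macrophage genes, 13 were lower and 3 higher, with a median of -0.31. Spp1, which encodes osteopontin, had a median of 449 CPM in members and 1073 CPM in the others and was lower in all 16 mice (log2 -1.66 ± 0.12). Fabp5, a fatty acid carrier, had 1519 CPM against 3461 CPM, and Cd9, a tetraspanin, had 79.1 CPM against 213 CPM. Of 16 cell-cycle genes, 12 were lower and 0 higher. All 7 tested MHC class II genes were lower, with a median of -0.66 and a range of -0.82 to -0.40, although H2-Aa was higher in members of 3 of 16 mice.

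**Figure D2:**
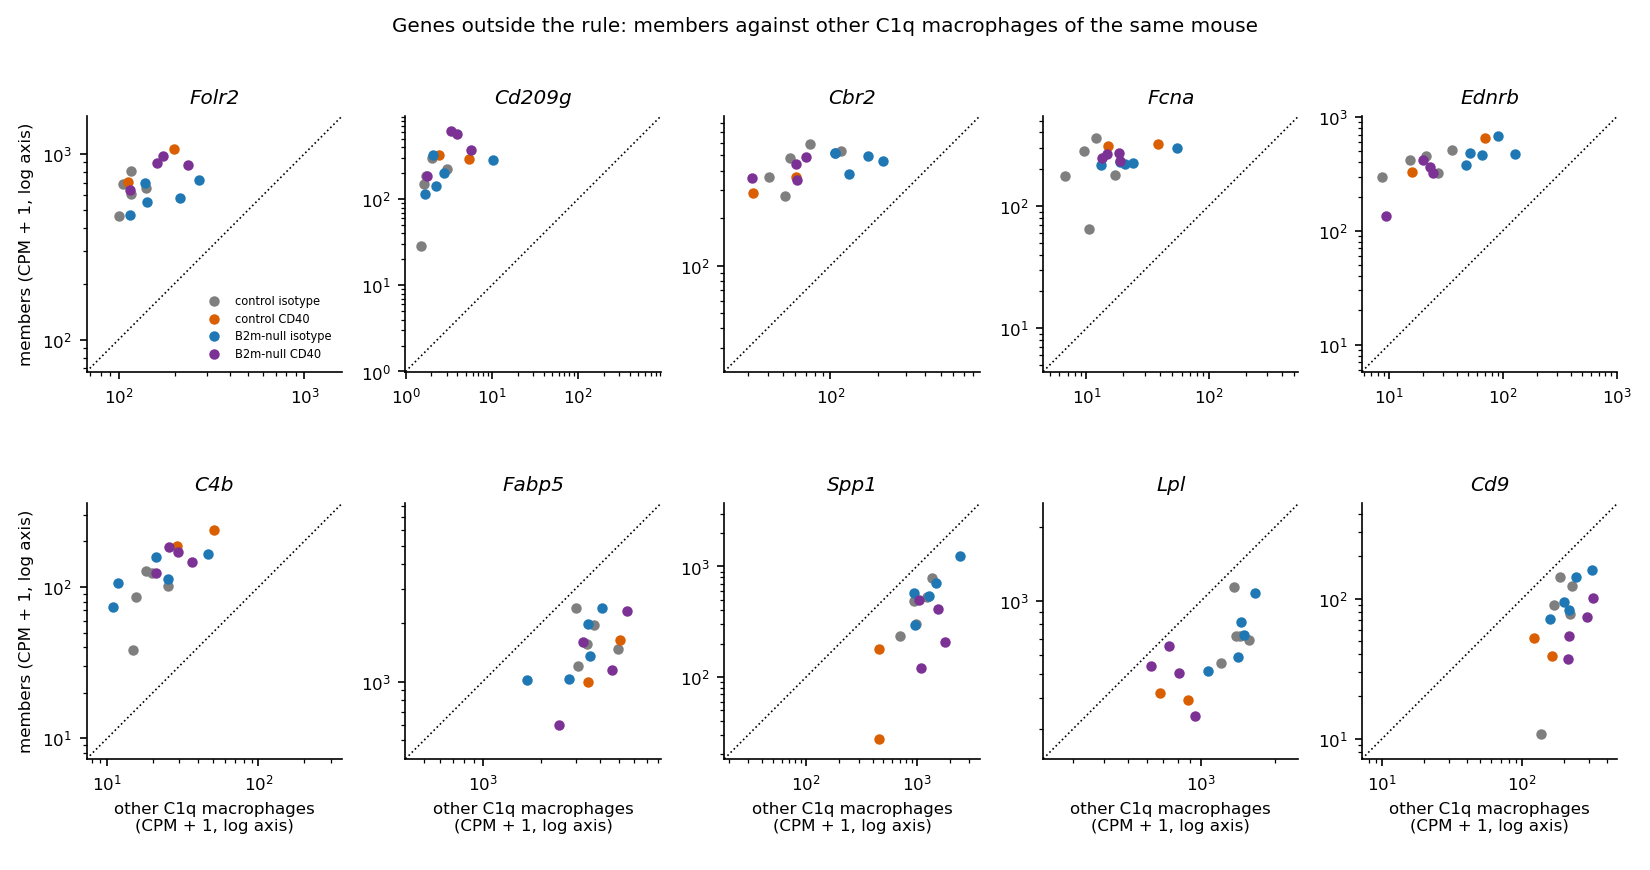
Level of 10 genes outside the rule in Lyve1 Cd163 Cd209f macrophages (vertical, CPM + 1, log axis) against other C1q macrophages of the same mouse (horizontal, CPM + 1, log axis), 1 point per mouse, with colour for the group and a dotted line of equal level. All 16 mice lie above the line for Folr2, Cd209g, Cbr2, Fcna, Ednrb and C4b and below it for Fabp5, Spp1, Lpl and Cd9. For genes of largest fold this was a condition of naming.

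Members with different rule genes were compared over pools, with no test. Folr2 was at 729 ± 151 CPM (SD, n = 7) in members with Lyve1 and Cd163, 672 ± 112 CPM (SD, n = 7) with Lyve1 and no Cd163, 537 ± 214 CPM (SD, n = 7) with Cd163 and no Lyve1, and 722 ± 130 CPM (SD, n = 6) with Cd209f alone. Cbr2, a carbonyl reductase of resident macrophages, was at 469 ± 79.4, 403 ± 73.8 and 256 ± 73.0 CPM (SD, n = 7) and 316 ± 116 CPM (SD, n = 6) in the same order. Fcna was at 302 ± 62.9, 225 ± 31.6 and 141 ± 91.1 CPM (SD, n = 7) and 161 ± 57.4 CPM (SD, n = 6). Members with Cd163 and no Lyve1 had the lowest mean of these 3 genes. Vsig4 was at 40.7 ± 29.8, 21.8 ± 12.7 and 35.7 ± 34.5 CPM (SD, n = 7) and at 0 in all 6 pools with Cd209f alone. Cd209g was at 311 ± 112, 148 ± 59.7 and 229 ± 217 CPM (SD, n = 7) and 493 ± 338 CPM (SD, n = 6), Timd4 at 72.7 ± 48.2, 18.3 ± 15.3 and 22.6 ± 28.6 CPM (SD, n = 7) and 34.6 ± 33.9 CPM (SD, n = 6), and Ltc4s at 259 ± 43.5, 305 ± 132 and 120 ± 141 CPM (SD, n = 7) and 147 ± 141 CPM (SD, n = 6). Ccr2, the receptor of blood monocytes for Ccl2, was at 98.3 ± 74.5, 106 ± 44.9 and 127 ± 94.6 CPM (SD, n = 7) in the first 3 classes. Mrc1, the mannose receptor, was at 1491 ± 508, 1499 ± 583 and 1441 ± 456 CPM (SD, n = 7) in them. The same pools supplied these 3 classes, so each SD holds differences between pools and treatments. Differences between classes within a pool were not tested.

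Anti-CD40 was compared with isotype within members of B2m-null tumours. edgeR's quasi-likelihood test on UMIs summed per mouse called 631 of 8131 genes at adjusted p under 0.05 (7.76%), 391 higher (4.81%) and 240 lower (2.95%). In this and the other comparisons between groups, genes of largest fold were named only where mouse values did not overlap. Lack of overlap in them is therefore a condition of naming and no further result. All 7 tested MHC class II genes, 11 of 15 interferon-gamma response genes, the B-cell chemokine Cxcl13 and complement C3 rose. The mannose receptor Mrc1, the platelet factor gene Pf4, the matrix protein gene Thbs1 and the monocyte receptor Ccr2 fell.

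Cxcl13, which draws B cells into follicles, had the highest log2 fold of the 8131 genes. It was at 11.8, 24.2, 28.8, 35.9 and 11.2 CPM in B2m-null isotype members and at 1458, 1227, 1383 and 1893 CPM under anti-CD40. These groups were far apart, with a log2 fold of 6.43 ± 0.57 (SE, edgeR adjusted p = 1.3e-07). Other C1q macrophages of the same B2m-null CD40 mice held 85.9, 42.6, 19.8 and 34.7 CPM. Control CD40 members held 242 and 126 CPM beside 0, 144, 16.5, 0 and 17.9 CPM in control isotype members, an overlap with 1 isotype mouse (log2 2.39 ± 0.69, edgeR adjusted p = 0.048), and the control call was lost in 18 of 24 runs that left out 1 mouse or lane. The 5 B-cell marker genes, mostly Ighm, summed to 65.8 to 274 CPM in B2m-null isotype members and to 296 to 435 CPM under anti-CD40, with no overlap, and their part in the result was not tested.

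All 7 tested MHC class II genes rose in B2m-null tumours, with a median log2 fold of 2.27 against -0.01 over all genes. H2-Aa, the alpha chain of I-A, was at 522, 597, 580, 684 and 206 CPM under isotype and at 1674, 1866, 2832 and 2886 CPM under anti-CD40 (log2 2.35 ± 0.24, edgeR adjusted p = 1.1e-06). Cd74, the invariant chain that guards the peptide groove, rose from 484 to 1474 CPM up to 3469 to 6217 CPM (log2 2.42 ± 0.23, edgeR adjusted p = 3.9e-07). Neither gene overlapped between treatments. In control tumours 5 of the 7 rose, with a median of 1.22, and H2-Aa stood at 1962 and 1729 CPM under anti-CD40 against 512 to 879 CPM under isotype (log2 1.56 ± 0.28, edgeR adjusted p = 0.0012). H2 genes are close relatives, so reads may be shared among them.

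Promoter stretches of these genes are shown because members raised them together and the class II promoters share known boxes. RefSeq windows of 300 bases (250 before to 50 after the start, GRCm38.p6) were given for 4 of the 7 genes, and 3 of them hold both the X box core CTNGNAACT and the Y box core TGATTGG. Either strand was searched, the motifs do not overlap, and their letters were chosen after these windows had been read. Across 32851 windows, 4.10% hold the X box core, 7.82% the Y box core and 0.350% both. Each line runs 5′ to 3′ on the gene's strand from 30 bases before the X box core to 30 after the Y box core, with both cores in capitals.
H2-Aa, chr17:34287837-34287937, minus strand: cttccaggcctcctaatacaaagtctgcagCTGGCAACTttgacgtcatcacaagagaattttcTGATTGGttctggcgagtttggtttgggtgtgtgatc
H2-Eb1, chr17:34305743-34305842, plus strand: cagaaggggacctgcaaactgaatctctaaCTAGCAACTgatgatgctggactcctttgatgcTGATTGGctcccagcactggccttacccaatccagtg
H2-DMb1, chr17:34153064-34153164, plus strand: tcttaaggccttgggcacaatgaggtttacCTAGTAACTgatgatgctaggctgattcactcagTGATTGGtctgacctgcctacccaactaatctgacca
The cores lie 25 bases apart in H2-Aa, 24 in H2-Eb1 and 25 in H2-DMb1. The windows of H2-DMa hold neither core. A match is a description of letters, and no binding was measured here.

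Of 15 tested interferon-gamma response genes, 11 rose in B2m-null CD40 members, with a median of 1.55. Gbp2b, an interferon-inducible GTPase, was at 4.14, 6.05, 3.60, 3.04 and 0.629 CPM under isotype and at 179, 322, 68.5 and 68.3 CPM under anti-CD40 (log2 6.17 ± 0.53, edgeR adjusted p = 1.3e-07). The groups did not overlap, and Gbp genes are near copies whose reads may be split. Gbp4, of the same family, rose by log2 2.86 ± 0.45 (edgeR adjusted p = 0.00025). In control tumours 1 of these 15 rose (Gbp2b, log2 2.12 ± 0.52, edgeR adjusted p = 0.016) and 1 fell (Fcgr1, -0.91 ± 0.22, edgeR adjusted p = 0.014).

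Some inflammatory and NF-kB genes also rose in B2m-null members. Of 15 inflammatory and feedback genes 6 rose, with a median of 0.63, and of 14 CD40 and non-canonical NF-kB genes 4 rose, with a median of 0.49. Acod1, which makes itaconate, was at 0 to 39.6 CPM under isotype and 200, 164, 28.0 and 72.6 CPM under anti-CD40, with 1 mouse overlapping (log2 3.37 ± 0.49, edgeR adjusted p = 0.00012). Cd40 itself rose by log2 1.04 ± 0.23 (edgeR adjusted p = 0.0063) and Birc3, an NF-kB target, by 1.11 ± 0.25 (edgeR adjusted p = 0.0069). None of the 14 CD40 pathway genes passed in control tumours, where their median was -0.03, and the difference between tumour types was not tested.

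Of 14 tested suppressive and alternative-activation genes, 2 rose in B2m-null members, Il10 and Cd274. Il10 was at 45.5, 98.8, 32.4, 23.1 and 19.9 CPM under isotype and at 155, 92.0, 99.3 and 88.2 CPM under anti-CD40, overlapping in 1 isotype mouse (log2 1.72 ± 0.37, edgeR adjusted p = 0.0059). Cd274, the PD-1 ligand gene, rose by log2 1.18 ± 0.20 (edgeR adjusted p = 0.00073). Mmp9, a matrix protease, was at 2.52 to 10.1 CPM and rose to 84.2, 10.2, 25.1 and 124 CPM (log2 4.23 ± 0.48, edgeR adjusted p = 6.1e-06). Pla2g2d, a lipid-mediator phospholipase, was at 2.95 to 10.8 CPM under isotype and at 79.0, 15.3, 60.7 and 62.6 CPM under anti-CD40 (log2 3.64 ± 0.45, edgeR adjusted p = 1.7e-05).

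Of 14 tested complement genes, 4 rose in B2m-null tumours and 3 in control tumours. C3, the central complement protein, was at 23.0, 52.4, 25.2, 56.0 and 20.6 CPM in B2m-null isotype members and 826, 470, 279 and 326 CPM under anti-CD40 (log2 3.95 ± 0.30, edgeR adjusted p = 3.0e-08). In control mice it was at 41.3 to 78.1 CPM under isotype and 283 and 209 CPM under anti-CD40 (log2 2.50 ± 0.37, edgeR adjusted p = 0.00014). The treatments did not overlap in either tumour type. Cfb, the protease of the alternative pathway, rose by log2 1.72 ± 0.20 in B2m-null tumours (edgeR adjusted p = 6.9e-06).

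Of 29 resident identity genes in B2m-null tumours, 3 rose and 3 fell, with a median of -0.06, and in control tumours 5 rose and 0 fell, with a median of 0.35. Mrc1 was at 2039, 1912, 1922, 2456 and 2371 CPM in B2m-null isotype members and at 824, 936, 1124 and 1094 CPM under anti-CD40, with no overlap (log2 -0.94 ± 0.15, edgeR adjusted p = 0.00024). In control tumours Mrc1 stood at 1241 to 1796 CPM under isotype and 1445 and 1001 CPM under anti-CD40 (log2 -0.22 ± 0.18, edgeR adjusted p = 0.56). Folr2 went from 549, 724, 468, 699 and 576 CPM to 863, 634, 895 and 968 CPM in B2m-null tumours (log2 0.65 ± 0.17, edgeR adjusted p = 0.016), and control tumours gave log2 0.62 ± 0.21 (edgeR adjusted p = 0.091).

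Among genes that fell under anti-CD40 were Thbs1, Fcrls and Ccr2. Thbs1, which encodes thrombospondin 1, was at 166, 331, 252, 321 and 201 CPM under isotype and at 47.4, 25.6, 119 and 58.3 CPM under anti-CD40 (log2 -1.62 ± 0.29, edgeR adjusted p = 0.0010). In control members it was at 87.9 to 221 CPM and at 40.9 and 38.2 CPM (log2 -1.65 ± 0.47, edgeR adjusted p = 0.045). Fcrls, an Fc receptor-like gene of resident macrophages, fell by 1.48 ± 0.29 on the log2 scale in B2m-null tumours and by 2.25 ± 0.54 in control tumours (edgeR adjusted p = 0.0022 and 0.013). Ccr2 fell in B2m-null members by 1.29 ± 0.30 (edgeR adjusted p = 0.0090).

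The count of 631 genes was 301 without the first B2m-null isotype pool, 360 without mouse 2 of the second B2m-null CD40 pool, 353 without that pool and 417 without the first B2m-null CD40 pool. It was 135 when barcodes with any marker UMI of T, NK, B, endothelial or fibroblast lists were left out, which kept 730 of 2182 members, and 216 at no more than 5% mitochondrial UMIs, which kept 794. Under the same 2 limits anti-CD40 in control tumours gave 137 and 371 genes, so the order of the tumour types by count depends on the limit.

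**Figure D3:**
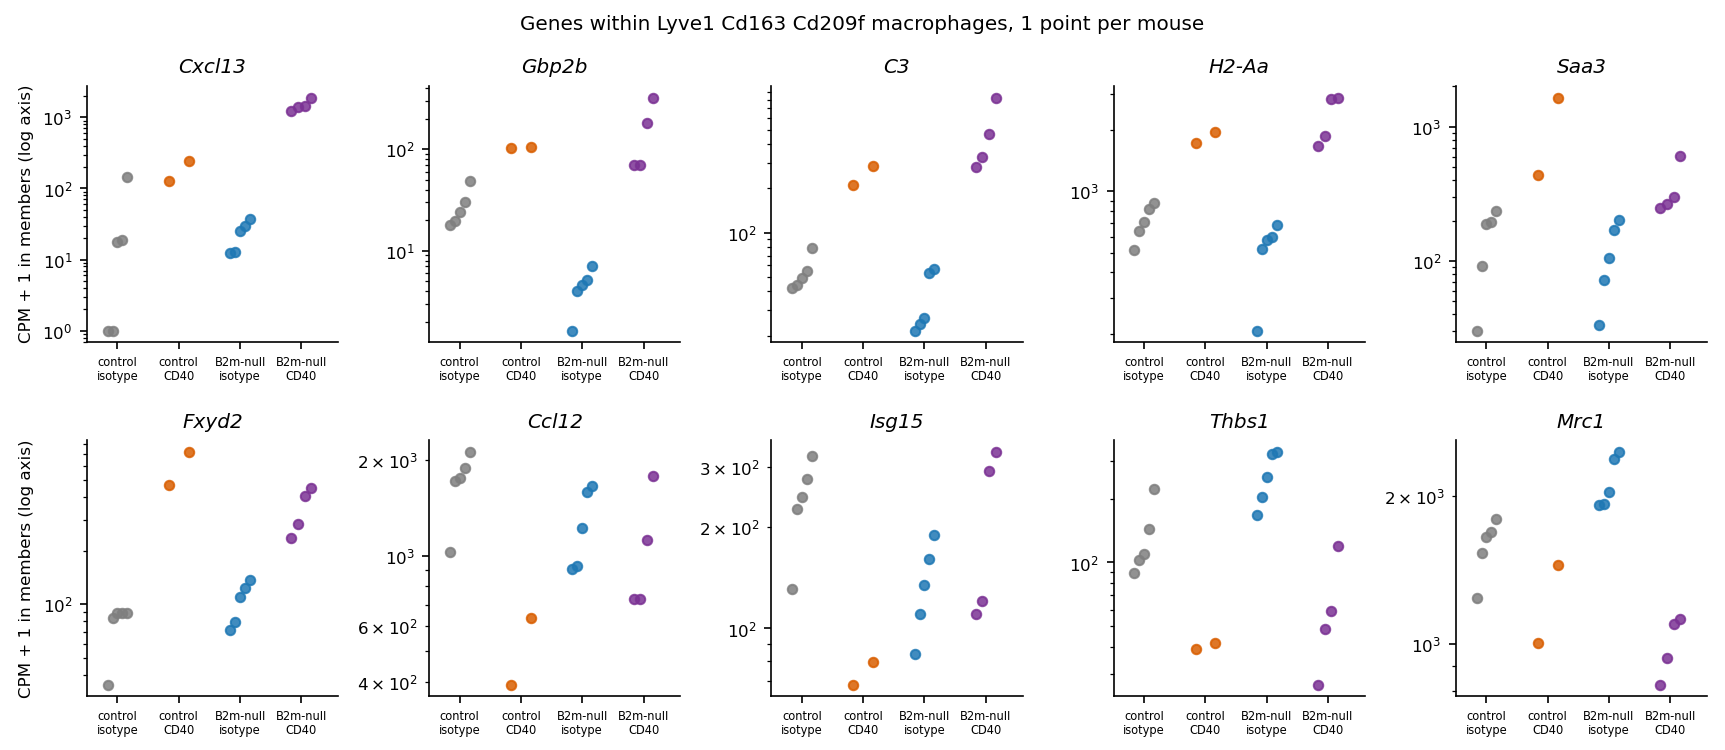
Level of 10 genes within Lyve1 Cd163 Cd209f macrophages (vertical, CPM + 1, log axis) in the 4 groups, 1 point per mouse, sorted by value within a group. The B2m-null CD40 mice lie at 1227 to 1893 CPM of Cxcl13 and 279 to 826 CPM of C3, above all isotype mice, and at 824 to 1124 CPM of Mrc1, below them.

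In control tumours edgeR called 356 of 8131 genes for anti-CD40 (4.38%), 267 higher (3.28%) and 89 lower (1.09%). The acute-phase gene Saa3, 3 of 14 complement genes, 5 of 7 MHC class II genes and the transcription factors Klf2, Klf4 and Egr1 rose. The monocyte chemokines Ccl2 and Ccl12 and 2 of 17 type I interferon-stimulated genes fell. This comparison rests on 2 mice of 1 pool. The count was 102 without mouse 2 and 174 without mouse 1 of that pool, 212 without its first lane, and 167 without the first control isotype pool. Without barcodes holding markers of other lineages it was 137, and on counts thinned to 3000 UMIs it was 205.

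Fxyd2, a regulator of the sodium pump, was at 87.9, 82.9, 88.5, 34.1 and 87.7 CPM in control isotype members and at 721 and 467 CPM under anti-CD40 (log2 3.15 ± 0.29, edgeR adjusted p = 2.9e-07). Saa3, an acute-phase protein of macrophages, was at 29.3, 90.2, 234, 187 and 194 CPM under isotype and 438 and 1646 CPM under anti-CD40 (log2 2.83 ± 0.46, edgeR adjusted p = 0.00037). Lack of overlap was a condition for naming both genes, and the 2 anti-CD40 mice differed from each other in Saa3 by more than the isotype range. Of 17 macrophage transcription factors 5 rose, among them Klf4 by log2 1.52 ± 0.25, Egr1 by 1.40 ± 0.37 and Klf2 by 1.29 ± 0.27 (edgeR adjusted p = 0.00040, 0.025 and 0.0049). Klf2 was at 373 to 918 CPM under isotype and at 1399 and 1253 CPM under anti-CD40.

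Of 14 chemokine genes 2 rose and 3 fell. Ccl2, the main monocyte chemoattractant, was at 2740 to 4139 CPM under isotype and 1419 and 730 CPM under anti-CD40 (log2 -1.46 ± 0.25, edgeR adjusted p = 0.00089). Ccl12, its close relative, was at 1022 to 2120 CPM and at 634 and 391 CPM (log2 -1.56 ± 0.33, edgeR adjusted p = 0.0055). In B2m-null tumours Ccl12 was at 907 to 1651 CPM under isotype and 1116, 1784, 731 and 727 CPM under anti-CD40, which overlap. Ccl5, a T-cell chemoattractant, rose by log2 2.51 ± 0.39 in control and 1.66 ± 0.32 in B2m-null tumours (edgeR adjusted p = 0.00019 and 0.0020).

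Of 17 type I interferon-stimulated genes, 2 fell and 0 rose in control tumours, with a median of -0.83. Isg15, a ubiquitin-like interferon product, was at 322, 224, 276, 130 and 244 CPM under isotype and at 67.2 and 78.6 CPM under anti-CD40 (log2 -1.48 ± 0.42, edgeR adjusted p = 0.043). Ifit3, a partner gene of the same response, fell by 2.11 ± 0.57 (edgeR adjusted p = 0.032). In B2m-null tumours 3 of the 17 rose and 0 fell, with a median of 0.15. Among them, Irf7, a transcription factor of the interferon response, was at log2 0.82 ± 0.24 (edgeR adjusted p = 0.038), and Ly6e at log2 0.73 ± 0.19 (edgeR adjusted p = 0.016). Isg15 there was at 82.8 to 188 CPM under isotype and 110 to 332 CPM under anti-CD40, which overlap. Leaving out 1 mouse or lane ended the control call of Isg15 in 9 of 24 runs and that of Thbs1 in 8.

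RNA composition and monocyte markers of the control CD40 pool moved with these changes. The 6 monocyte genes summed to 434 to 1280 CPM in control isotype members and 321 to 391 CPM under anti-CD40, with no overlap, and with 0 of the 6 at 0 in every mouse of either group. Zfas1, a snoRNA host transcript, was at 45.6 to 78.1 CPM in control isotype members and at 277 and 256 CPM under anti-CD40 (log2 2.54 ± 0.32, edgeR adjusted p = 1.4e-05), and in other C1q macrophages at 33.6 to 49.2 CPM and at 143 and 86.6 CPM. Mitochondrial UMIs made up 4.12 and 4.52% of member UMIs in control CD40 mice and 5.06 to 6.29% in control isotype mice. Ribosomal protein genes made up 10.3 and 12.6% against 8.90 to 10.5%. Their part in the result was not tested.

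**Figure D4:**
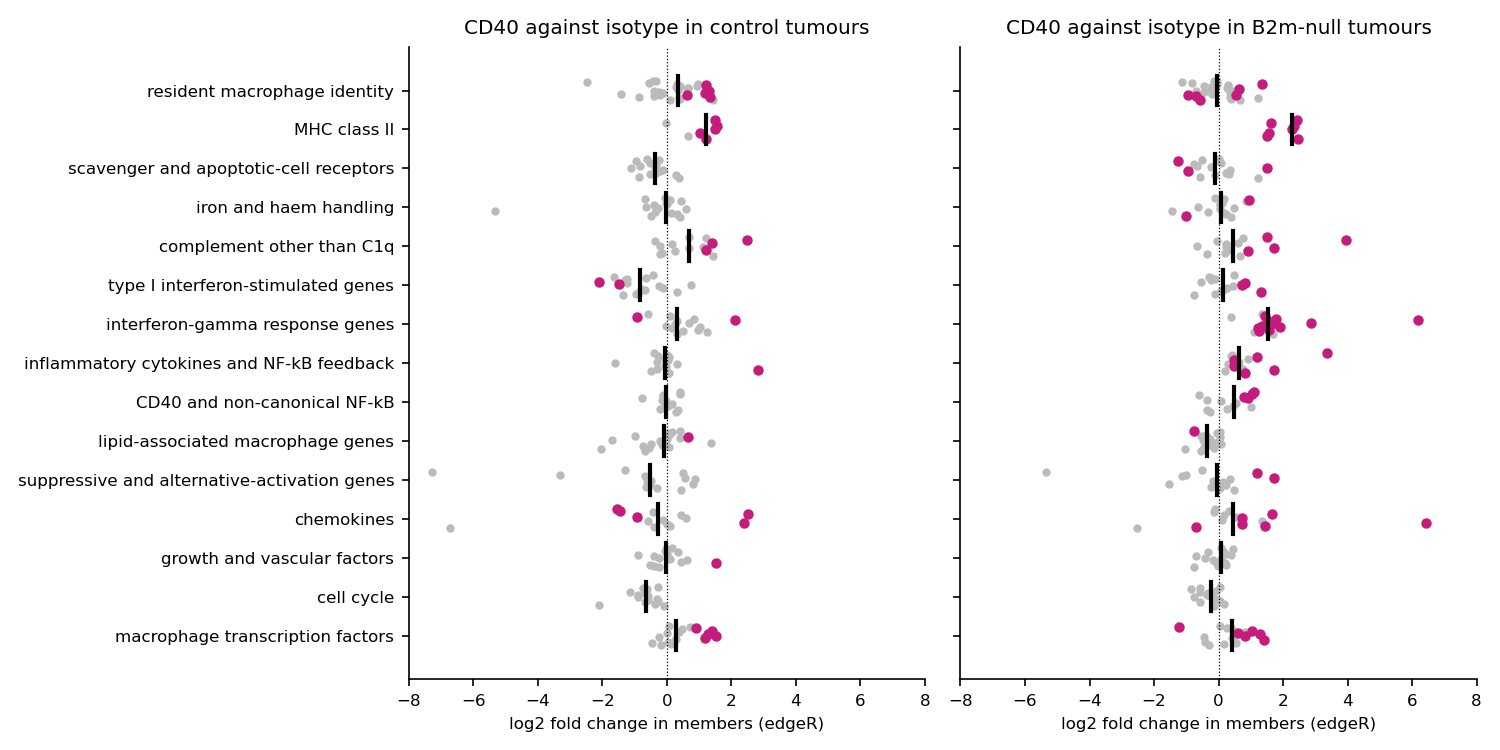
Log2 fold of each tested gene under anti-CD40 within Lyve1 Cd163 Cd209f macrophages (horizontal, edgeR), by gene list (vertical), in control tumours (left) and B2m-null tumours (right), with genes past adjusted p 0.05 in magenta, the others in grey and the list median as a black bar. The MHC class II median is at 1.22 in control and 2.27 in B2m-null tumours, and the interferon-gamma list has 11 of 15 genes past the threshold in B2m-null tumours.

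The comparisons of tumour types use the same mice as the anti-CD40 comparisons, so their values are given side by side and not as separate evidence. Few genes passed the test between tumour types under isotype. edgeR called 11 of 8131 genes (0.135%), 4 higher in B2m-null tumours (0.0492%) and 7 lower (0.0861%). H2-Q7, a non-classical MHC class I gene, was at 205, 132, 131, 95.8 and 173 CPM in control and 68.0, 64.5, 28.8, 84.0 and 47.5 CPM in B2m-null members (log2 -1.20 ± 0.19, edgeR adjusted p = 0.0084). Psmb8, an immunoproteasome subunit, was at 254, 345, 414, 374 and 355 CPM and at 187, 149, 158, 232 and 182 CPM (log2 -0.97 ± 0.14, edgeR adjusted p = 0.0037). Neither gene overlapped between tumour types. The interferon-inducible Gbp2b was lower by log2 -3.70 ± 0.61 (edgeR adjusted p = 0.0098), and 4 ribosomal protein genes were higher, from Rpl41 at 0.52 ± 0.11 to Rpl38 at 0.66 ± 0.12 (edgeR adjusted p = 0.043 and 0.015).

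Lists under isotype held few calls. Of the resident, MHC class II and lipid lists none had a gene past the threshold, with medians of 0.20, -0.59 and 0.13. The 15 interferon-gamma genes had 1 call and a median of -0.90, with log2 values from -3.70 to -0.27, and 14 of them did not pass the test. Folr2 gave log2 -0.10 ± 0.16 (edgeR adjusted p = 0.97). Without the first control isotype pool edgeR called 0 genes (466 at unadjusted p under 0.05), and with all mice DESeq2 called 48. Without single mice the count ran from 2 to 28.

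Under anti-CD40 edgeR called 69 genes between tumour types (0.849%), 17 higher in B2m-null tumours (0.209%) and 52 lower (0.640%). Marco, a scavenger receptor for bacteria and particles, was at 29.2 and 33.7 CPM in control and at 318, 567, 212 and 203 CPM in B2m-null members (log2 3.23 ± 0.63, edgeR adjusted p = 0.0098). Cxcl13 was higher in B2m-null members by log2 3.02 ± 0.69 (edgeR adjusted p = 0.032). Mmp9 rested on 3 UMIs in control CD40 members against 147 in B2m-null CD40 members, a ratio of CPM of 16.7 with a 95% counting interval of 5.59 to 81.8.

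Hspa1b, a heat-shock gene, stood at 365 and 168 CPM in control CD40 mice and at 42.1, 5.11, 12.5 and 9.96 CPM in B2m-null CD40 mice (log2 -4.01 ± 0.52, edgeR adjusted p = 0.00023), and Hspa1a, its near-identical copy, at 245 and 202 CPM against 68.4, 0, 49.2 and 15.7 CPM (log2 -2.60 ± 0.48, edgeR adjusted p = 0.0069). Neither overlapped, and reads may be split between the copies. Rpl37a was lower by log2 -1.16 ± 0.15 and mt-Atp6 higher by 1.28 ± 0.18 (edgeR adjusted p = 0.00023 and 0.00027), beside the composition of the control CD40 pool given above, whose part in the result was not tested. Folr2 gave log2 -0.08 ± 0.22 (edgeR adjusted p = 0.94). The count of 69 was 8 without control CD40 mouse 2, 3 without barcodes holding other-lineage markers, and 118 in DESeq2.

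Whether anti-CD40 acted differently on members than on other C1q macrophages of the same mice was tested within mice. The 2 sets were split by rule genes, so levels differ by choice. Treatment was not part of the rule, but the rule set which cells fell in each set under each treatment. In B2m-null tumours Lyve1 was detected in 4.73% of the others under isotype and 2.92% under anti-CD40, and Cd163 in 4.90 and 1.09%. The part of the rule in the differences of effects was not tested. Both tumour types' tests share no mice. In B2m-null tumours edgeR called 84 of 8753 genes (0.960%). On the log2 scale 61 had a larger rise or smaller fall in members (0.697%) and 23 went the other way (0.263%). In the other C1q macrophages of B2m-null tumours, ribosomal protein genes made up 10.1 to 12.1% of UMIs under isotype and 12.2 to 13.3% under anti-CD40, with no overlap, while in members they made up 9.54 to 10.3% under both. The part of this shift in the result was not tested. Cd74, H2-Aa, Cd209d, Mrc1, Pdgfc and Il10 were on the first side, and Saa3, Spp1, Cd9 and the lectin Clec4n on the second.

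Of 7 tested MHC class II genes, 5 rose more in members than in the others in B2m-null tumours, with a median difference of 0.98. Cd74 in other C1q macrophages was at 1384 to 3112 CPM in B2m-null isotype mice and at 3329 to 6117 CPM under anti-CD40, beside 484 to 1474 and 3469 to 6217 CPM in members. The extra rise in members was log2 1.11 ± 0.12 (edgeR adjusted p = 4.0e-06). H2-Aa gave 1.05 ± 0.15 in B2m-null and 1.00 ± 0.19 in control tumours (edgeR adjusted p = 0.00021 and 0.024).

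Of 28 tested resident genes, 11 were called on the members' side in B2m-null tumours and 0 on the other, with a median of 0.64. The rule split the 2 sets by genes of this kind, so the count is a description. Cd209d, a lectin, was at 45.8 to 280 CPM in B2m-null isotype members and 23.7, 0, 62.7 and 121 CPM under anti-CD40, while the others went from 1.67 to 23.2 CPM down to 0, 0, 0.324 and 1.04 CPM. Its difference of effects was log2 2.87 ± 0.53 (edgeR adjusted p = 0.0043), on low counts in the others. Mrc1 fell in both, from 1439 to 1612 CPM to 321 to 628 CPM in the others, with a difference of 0.58 ± 0.12 (edgeR adjusted p = 0.0096). Gas6 and Pdgfc, a growth factor, gave 0.81 ± 0.18 and 0.99 ± 0.22 (edgeR adjusted p = 0.021 and 0.020).

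Saa3 rose by a smaller log2 fold in members than in the others, which started lower, although its CPM was higher in members of all 16 mice. It was at 32.3 to 202 CPM in B2m-null isotype members and 247, 608, 267 and 300 CPM under anti-CD40, while the others went from 5.47 to 14.6 CPM to 91.3 to 206 CPM. The difference of effects was log2 -2.22 ± 0.36 in B2m-null and -2.14 ± 0.41 in control tumours (edgeR adjusted p = 0.00097 and 0.024). Spp1 was at 292 to 1239 CPM in B2m-null isotype members and at 118, 496, 414 and 206 CPM under anti-CD40, and the others held 1041 to 1792 CPM under anti-CD40 beside 951 to 2477 CPM (difference -1.18 ± 0.28, edgeR adjusted p = 0.034).

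In control tumours edgeR called 13 genes (0.149%), 6 on the members' side (0.0685%) and 7 on the other (0.0800%). Besides those above they included Ccl5 at 1.67 ± 0.35, and Ltc4s at -1.63 ± 0.30 (edgeR adjusted p = 0.045 and 0.024). Ltc4s was at 120 to 412 CPM in control isotype members and 496 and 521 CPM under anti-CD40, while the others went from 5.26 to 18.7 CPM to 88.3 and 72.6 CPM. Without control CD40 mouse 1 or mouse 2 edgeR called 0 genes (620 and 583 at unadjusted p under 0.05), and with all mice DESeq2 called 29. In B2m-null tumours the count was 22 without the first B2m-null isotype pool and 37 to 155 without single mice. Without barcodes holding other-lineage markers it was 0 in both tumour types (326 and 401 genes at unadjusted p under 0.05).

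**Figure D5:**
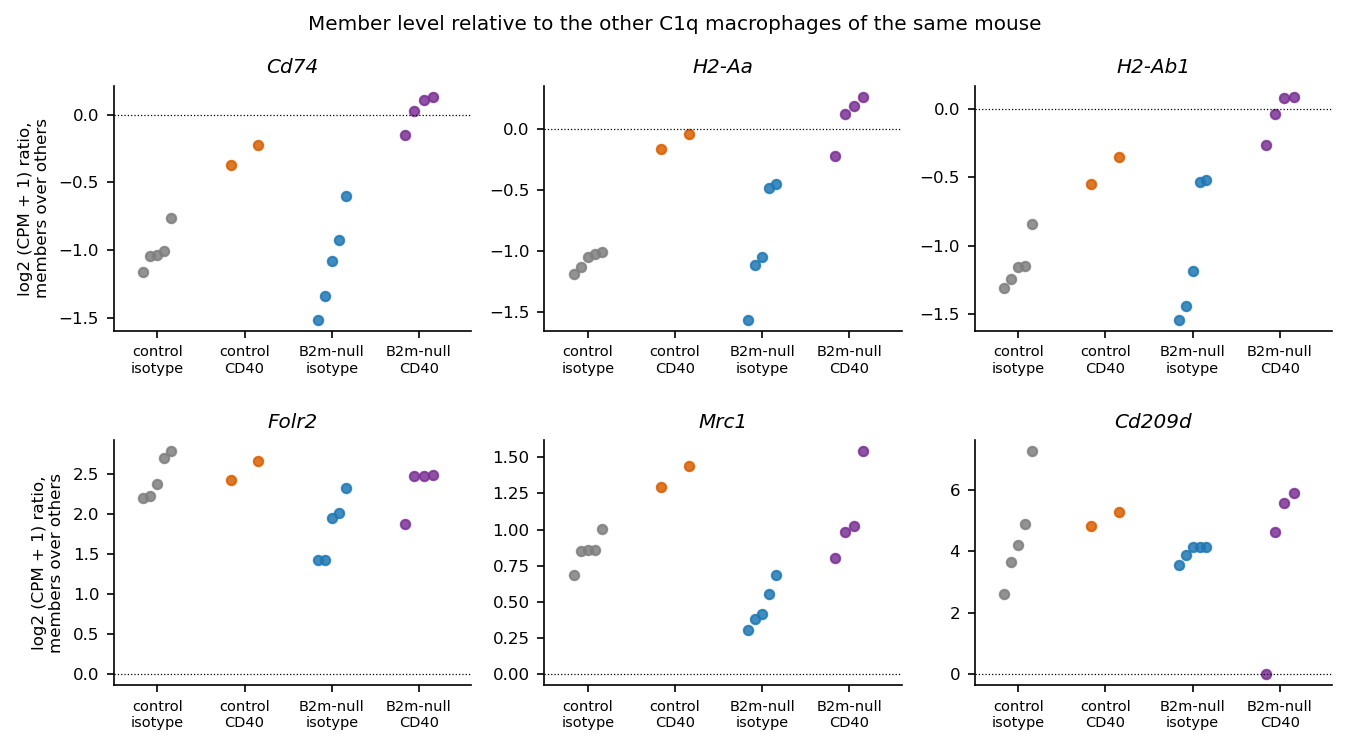
Level of 6 genes in Lyve1 Cd163 Cd209f macrophages relative to other C1q macrophages of the same mouse (vertical, log2 ratio of CPM + 1), by group, 1 point per mouse, with a dotted line at equal level. Cd74 lies below the line in all 5 mice of each isotype group, and in 3 of 4 B2m-null CD40 mice it lies above.

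Markers of other cells were found in members, and some moved with treatment. The summed level of 8 T-cell genes outside the rule was 8.73 to 19.5 CPM in control isotype, 29.2 to 58.4 CPM in control CD40, 6.54 to 16.1 CPM in B2m-null isotype and 20.4 to 32.7 CPM in B2m-null CD40 members, with 0 of the 8 at 0 in every mouse of any group. The 5 NK-cell genes summed to 8.81 to 33.5, 42.7 to 78.8, 4.73 to 42.0 and 6.75 to 216 CPM in the same order, with Ncr1, Klrb1c and Klre1 at 0 in control CD40 mice. Their part in the Ccl5 result and in the other anti-CD40 results was not tested.

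Endothelial genes were low. Of 9 such genes 0 were at 0 in every control isotype mouse, 7 in control CD40, 4 in B2m-null isotype and 6 in B2m-null CD40 mice. The sum was 14.2 to 99.1, 11.7 to 18.0, 14.4 to 24.2 and 7.90 to 35.8 CPM in that order of groups. Flt4, Mmrn1 and Ccl21a, which mark lymphatic vessels, were at 0 in the last 3 groups. In control isotype members they reached 3.30, 37.4 and 8.81 CPM. Prox1, which marks these vessels too, was at 0 throughout both anti-CD40 groups. It was detected in both isotype groups, at no more than 3.30 CPM in any mouse. The part of these genes in the Lyve1 levels was not tested. Fibroblast genes summed to 7.67 to 135 CPM and neutrophil genes to 14.3 to 108 CPM over all mice.

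Other marker lists were as follows. In B2m-null tumours the monocyte sum was 367 to 1073 CPM under isotype and 388 to 961 CPM under anti-CD40, which overlap. Dendritic-cell genes summed to 27.1 to 97.7 CPM in control isotype and 11.7 to 15.7 CPM in control CD40 members, with no overlap, and to 19.5 to 96.8 and 10.6 to 47.4 CPM in B2m-null members. The B-cell sum in control members was 138 to 284 CPM under isotype and 247 to 257 CPM under anti-CD40, with 3 of the 5 genes under 10 CPM in every mouse of every group. Ighm was at a median of 227 CPM in members and 73.6 CPM in the others. Melanoma genes summed to 122 to 781 CPM in B2m-null isotype and 68.4 to 89.7 CPM in B2m-null CD40 members, with no overlap, and to 111 to 284 and 84.7 to 1242 CPM in control isotype and control CD40 members. The part of these genes in the anti-CD40 results was not tested. The macrophage genes outside the rule were present in every group, and 0 of 5 were at 0.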

How the data were processed

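Single-cell RNA and hashtag libraries were read as deposited matrices of raw UMI counts, 1 per lane; per the submitters' processing notes the authors used bcl2fastq 2.20.0.422 and Cell Ranger 3.0.0 with the mm10 genome. No ambient RNA removal or doublet removal is given in the sources used here. Hashtag counts assigned barcodes to mice (at least 20 hashtag counts, posterior of 0.9), and barcodes with more than 1 hashtag or none were left out of tests between mice, as were mice with under 20 members. The members and gene lists were chosen with earlier results of these data known.

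UMIs were summed per mouse over members and over other C1q macrophages. edgeR 4.0.16 (R 4.3.3, TMM scaling, quasi-likelihood test, Benjamini-Hochberg adjustment over all tested genes, threshold 0.05) compared groups within members, and members with others with the mouse as a block. Both control CD40 lanes were summed as 1 pool. All groups shared 1 estimate of spread. Shares were compared with exact permutation tests in Python 3.11.15. Mice within a pool share a lane, so p-values do not cover differences between lanes. Intervals cover counting error only.

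Genes named were up to 10 rises and 10 falls per comparison of largest log2 fold with at least 50 CPM in the higher group and groups that do not overlap, plus up to 4 called genes per list. For members against others, the same sign in every mouse took the place of groups that do not overlap. For differences of effects neither was required. Where a list had no call, its 2 genes of highest mean were eligible. Some genes that entered the tests and list counts are not reported here. Alternatives were RLE scaling, no filter, DESeq2 1.42.0, other rule limits, thinning to 3000 UMIs, lanes as units and leaving out mice or lanes. On simulated data for anti-CD40 in B2m-null tumours (7836 genes) edgeR recovered 63.8% of genes changed by log2 1 and 91.6% of those changed by log2 2. Of its calls there, 4.94% were false. Simulated mice were drawn independently, with no differences between lanes or pools, so these rates do not cover such differences in the real data.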

Additional observations from a re-analysis of the deposited data

Results flagged for a closer look

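In 5 of 105 groups of mice tested, 1 mouse lay further from the others than Dixon's limit allows, where chance gives about 5%. Mouse 2 of the first B2m-null CD40 pool had a member share of 5.26% of C1q macrophages, beside 10.8 to 11.8% in the other mice of its group, and also had 608 CPM of Saa3 beside 247 to 300 CPM. Mouse 1 of that pool had 155 CPM of Il10 beside 88.2 to 99.3 CPM. In control isotype mice, mouse 2 of the first pool had 144 CPM of Cxcl13 beside 0 to 17.9 CPM, and mouse 1 of the second pool had 34.1 CPM of Fxyd2 beside 82.9 to 88.5 CPM.

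By edgeR's test of the difference, the anti-CD40 effect was called different between members and other C1q macrophages in the following genes. Values are the log2 effect in members minus that in the others. Of named calls of this kind, 0 of 13 in control and 0 of 33 in B2m-null tumours held in every alternative. The control comparison rests on 2 mice of 1 pool. In control tumours the differences were 1.67 for Ccl5, 1.00 for H2-Aa, 0.86 for Clec10a, 0.75 for Egr1, 0.73 for Cd74 and 0.69 for Rhob. On the other side stood Saa3 at -2.14, Cd5l at -2.06, Ltc4s at -1.63, mt-Nd4 at -0.61, mt-Nd2 at -0.60, mt-Atp6 at -0.55 and mt-Cytb at -0.51.

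In B2m-null tumours the lectins and resident genes among them were Cd209d at 2.87, Ednrb at 1.24, Clec4b1 at 1.24, Cbr2 at 1.14, Mrc1 at 0.58 and Trf, which carries iron, at 1.20. Antigen-presentation genes were Cd74 at 1.11, H2-Aa at 1.05, H2-Ab1 at 1.02 and H2-Eb1 at 0.98. Secreted factors were Ccl24 at 2.23, Il10 at 1.26, Pdgfc at 0.99, C3 at 0.94, Gas6 at 0.81 and Pros1 at 0.74. Interferon-inducible GTPases were Gbp2b at 2.28 and Gbp4 at 0.94, and transcription factors were Egr1 at 0.85 and Nr1h3 at 0.78.

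Genes with the smaller rise or larger fall in members of B2m-null tumours were Saa3 at -2.22, Spp1 at -1.18, Selenom at -1.10, Clec4n at -0.99, Pla2g7 at -0.95, Cd9 at -0.90, Tgfbi at -0.85, Cfb at -0.75, Ssr2 at -0.75, Atxn10 at -0.74, Trem2 at -0.66 and Fth1 at -0.54.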

How the results depend on the processing

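With at most 5% mitochondrial UMIs the C1q share differences were 2.25 points for anti-CD40 in control tumours, a change of sign, -10.0 in B2m-null tumours, 11.2 for tumour type under isotype and -1.03 under anti-CD40, a change of sign. With the lane as the unit the B2m-null anti-CD40 difference was -10.6 and the isotype difference 11.1 points. Neither could pass with so few lanes (exact permutation test, adjusted p = 0.556 for both). Without 1 mouse or lane the 5 C1q differences ran from -5.27 to 1.37 (control anti-CD40), -15.8 to -10.6 (B2m-null anti-CD40), 11.7 to 16.9 (isotype), -0.285 to 6.36 (tumour type under anti-CD40) and -14.8 to -8.20 (difference of effects). By lane left out, B2m-null anti-CD40 was -12.3 and -14.6 (CD40 lanes 1 and 2) and -11.3 and -14.9 (isotype lanes), and the isotype difference 12.3 and 16.02 (B2m-null lanes) and 14.7 and 14.5 (control lanes). For the share of all cells, B2m-null anti-CD40 was -5.18 thinned, -3.28 at 5% mitochondrial UMIs, -4.12 by lane, -5.71 to -3.26 without 1 mouse, -4.58 and -5.01 without CD40 lanes 1 and 2, and -6.06 and -3.96 without isotype lanes 1 and 2. The isotype difference was 4.90, 3.37, 3.63 and 3.30 to 5.74 in that order, 6.09 and 3.999 without B2m-null lanes 1 and 2, and 4.45 and 5.10 without control lanes 1 and 2. Without 1 mouse or lane the others ran from -2.02 to -1.22 (control) and 1.23 to 2.06 (under anti-CD40).

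Counts of called genes that moved by over 1.5 times are given here, with the ranges without 1 mouse or lane. Control anti-CD40 gave 205 thinned, 137 without barcodes holding other-lineage markers, 174 by lane, 102 to 423 without 1 mouse, and 167 to 425 without 1 lane (167 without the first control isotype lane, 212 without the first control CD40 lane). B2m-null anti-CD40 gave 366 thinned, 216 at 5% mitochondrial UMIs, 135 without other-lineage markers, 360 to 654 without 1 mouse, and 301 to 616 without 1 lane (417 and 353 without CD40 lanes 1 and 2). Tumour type under isotype gave 74 unfiltered, 48 in DESeq2, 6 with 50 members per mouse, 1 at a rule sum of 3, 1 thinned, 0 without other-lineage markers (269 at unadjusted p under 0.05 in edgeR) and 0 to 28 without 1 mouse or lane. Under anti-CD40 it gave 118 in DESeq2, 36 at 5%, 3 without other-lineage markers, 15 by lane and 8 to 99 without 1 mouse or lane. Members against others gave 1954 at 5%, 1292 without other-lineage markers, and 2584 to 3504 without 1 mouse or lane, within 1.5 times in all 24 runs. The difference of effects in control tumours gave 76 unfiltered, 29 in DESeq2, 26 with 50 members per mouse, 7 at 5%, 0 without other-lineage markers, 8 at 5000 to 15000 UMIs, 0 to 26 without 1 mouse or lane, and 4 without the first control CD40 lane. In B2m-null tumours it gave 207 unfiltered, 49 with 50 members per mouse, 49 thinned, 24 at 5%, 0 without other-lineage markers, 26 at 5000 to 15000 UMIs, 37 to 155 without 1 mouse, and 22 to 114 without 1 lane (45 and 54 without CD40 lanes 1 and 2). The limits on barcodes keep fewer cells. The cause of these shifts was not tested.

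With the replicate number as a block, the C1q share differences were -13.1 and 14.2 points, those of all cells -5.01 and 4.98, and the counts 627 for B2m-null anti-CD40 and 19 for isotype. Deviations of same-numbered pools correlated at 0.181, 0.112 and 0.195 with 2 pairs each, which does not establish pairing. Signs turned for Mrc1 in control anti-CD40 (-0.49 to 0.014 without 1 mouse), for Slc13a3 between tumour types under anti-CD40 (-0.45 without other-lineage markers), and for Steap3 (-0.13 without the first control CD40 lane), Mcm5 (0.031) and Ccnb1 (0.12, both without other-lineage markers) in members against others. Folr2 between tumour types turned under isotype (0.088 at 5%, and -0.21 to 0.016 without 1 mouse) and under anti-CD40 (0.038 with 50 members per mouse, 0.27 without other-lineage markers, -0.34 to 0.23 without 1 mouse, and 0.17 and 0.085 without the first control and first B2m-null CD40 lanes). Its difference of effects in control tumours turned to -0.034 without other-lineage markers and -0.043 without the first control CD40 lane. Named calls that held in every alternative numbered 12 of 40 for control and 21 of 55 for B2m-null anti-CD40, 0 of 9 for isotype, 2 of 20 under anti-CD40, 63 of 74 for members against others, and 0 of 13 and 0 of 33 for the differences of effects. Few members per mouse, 25 at the lowest, limit what low genes can show.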
